A study of Mus musculus with 6 samples.

Results

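The leukocyte integrins described here were 10 genes of 55487 measured, listed by gene name. They encode the αL, αM and αX subunits (Itgal, Itgam, Itgax) with their partner β2 (Itgb2), the α4, α5 and α6 subunits (Itga4, Itga5, Itga6) with β1 (Itgb1), and the αV and β5 subunits (Itgav, Itgb5). All 10 were found in the files and all 10 passed the filter on low values, a mean of at least 0.5 TPM, a read count per transcript length scaled to the same total in each library.

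The study knocked down NCOA4, the receptor that delivers ferritin to the lysosome so that its iron is released, and asked how loss of it changes macrophages. RNA was taken from J774 cells, an established mouse macrophage line, after liposome-mediated delivery of control siRNA or NCOA4 siRNA, 3 cultures per siRNA and thus 6 libraries. An siRNA is a short RNA duplex that guides the cleavage of a matching transcript, so the knockdown was transient and partial. Both groups carried the liposome reagent and were grown in the same medium, 1 control siRNA and 1 NCOA4 siRNA were used, and the time from transfection to RNA isolation of these libraries is not stated in the sources used here.

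An integrin is a pair of 1 α and 1 β subunit that spans the plasma membrane, binds matrix or cell surface ligands outside and the actin cytoskeleton inside. The β2 integrins are restricted to leukocytes: αLβ2 (LFA-1) binds intercellular adhesion molecules, αMβ2 (Mac-1, CR3) binds the complement fragment iC3b and fibrinogen and serves in phagocytosis and adhesion, and αXβ2 (CR4) also binds iC3b. The α4β1 pair (VLA-4) binds VCAM-1 and fibronectin, α5β1 is the classical fibronectin receptor, α6β1 binds laminin, and αVβ5 binds vitronectin and takes part in the engulfment of apoptotic cells. An α or β subunit that does not find its partner is mostly retained in the endoplasmic reticulum, so the levels of partners are set beside each other below.

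The targeted transcript was lower in every library labelled NCOA4 siRNA. Ncoa4 stood at 19.7, 22.5 and 22.4 TPM in control siRNA replicates 1 to 3 and at 9.63, 8.60 and 8.88 TPM in NCOA4 siRNA replicates 1 to 3. The mean with NCOA4 siRNA was 41.9% of that with control siRNA, and the log2 fold change was −1.21 (SE 0.0767; limma, Benjamini-Hochberg adjusted p = 0.00127). The rebuilt depth was 15732019 to 18554380 reads on genes per library, and 1 read on a transcript of 2 kb was worth 0.0825 to 0.0959 TPM. Control siRNA replicate 1 stood furthest from its group, with a median absolute log2 difference over tested genes of 0.151 and 0.136 to replicates 2 and 3, against 0.108 between those replicates and 0.0817 to 0.0867 within the NCOA4 siRNA group. Of 11 macrophage markers 10 were tested, and they summed to 8691 to 8891 TPM in the control group and to 9095 to 9199 TPM in the knockdown group. Within that list Mrc1, Adgre1, Fcgr1, Csf1r and Mertk rose and Cd14 fell (limma, Benjamini-Hochberg adjusted p under 0.05), and the part of this in the integrin results was not tested. Mrc1 and Fcgr1 kept the call with each library left out, while Adgre1, Csf1r and Mertk lost it without any 1 NCOA4 siRNA library and Cd14 without any of these or control replicates 2 or 3, with an adjusted p of up to 0.155. Markers of other cells were low apart from S100a8. Neutrophil markers summed to 15.5 to 25.4 TPM over the 6 libraries, and nearly all of that sum was S100a8. Elane reached 1.05 TPM in NCOA4 siRNA replicate 1, while Ly6g, S100a9, Camp, Ngp and Mpo were at 0. T cell markers summed to 4.98 to 5.60 TPM, nearly all of it Lck, with Cd3e, Cd3g, Cd8a and Trac at 0. In RNA from whole cultures a change in the share of cells that carry a transcript cannot be told apart from a change in its amount per cell.

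The promoters of 4 members are shown. Itgam and Itgax lie next to each other and encode partners of β2. Itga4 and Itgb5 are members that rose, and they were added after their values were seen. Each run is the 250 bases before the start that RefSeq gives the gene, which for Itgax lies 3 bases after the GENCODE start used below, on the gene's strand from 5′ to 3′, from RefSeq on GRCm38.p6. Capitals mark the hexamer GAGGAA or its reverse complement TTCCTC, the core bound by PU.1 (Spi1), the ETS factor that drives myeloid genes. The windows are chr7:128062390-128062639 (Itgam), chr7:128129300-128129549 (Itgax), chr2:79255176-79255425 (Itga4) and chr16:33829415-33829664 (Itgb5), all on the plus strand.
Itgam: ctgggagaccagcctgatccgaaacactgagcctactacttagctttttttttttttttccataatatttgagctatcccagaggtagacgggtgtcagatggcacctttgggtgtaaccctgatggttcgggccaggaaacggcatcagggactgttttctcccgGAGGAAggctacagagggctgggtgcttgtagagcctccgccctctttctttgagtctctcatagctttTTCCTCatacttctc
Itgax: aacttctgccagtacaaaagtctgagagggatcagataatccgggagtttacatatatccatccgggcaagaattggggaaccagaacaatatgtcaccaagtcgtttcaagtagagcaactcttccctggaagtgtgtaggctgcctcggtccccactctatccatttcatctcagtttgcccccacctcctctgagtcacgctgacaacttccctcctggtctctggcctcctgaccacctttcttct
Itga4: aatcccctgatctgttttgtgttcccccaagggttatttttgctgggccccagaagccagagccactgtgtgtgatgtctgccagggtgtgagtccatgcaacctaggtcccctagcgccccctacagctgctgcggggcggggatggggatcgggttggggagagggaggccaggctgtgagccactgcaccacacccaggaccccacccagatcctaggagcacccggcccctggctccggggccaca
Itgb5: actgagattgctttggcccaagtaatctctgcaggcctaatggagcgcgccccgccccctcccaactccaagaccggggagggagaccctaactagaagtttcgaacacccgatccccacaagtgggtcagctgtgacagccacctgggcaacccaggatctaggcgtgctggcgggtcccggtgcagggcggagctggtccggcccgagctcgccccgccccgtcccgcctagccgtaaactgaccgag

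The Itgam window held the hexamer once on each strand, with first bases 84 and 15 bases before the start. Of the 7 members with a window in the table, 4 held the hexamer on either strand (Itgam, Itga5, Itgav and Itgb1), against 23.3% of 32851 windows of the same length. The windows of Itga5, Itgav and Itgb1 are not printed. Those of Itgax, Itga4 and Itgb5 did not hold these letters. Such a match is a description of the sequence and not of binding. Spi1 itself stood at 210 ± 15.9 TPM in the control group and at 218 ± 6.46 TPM after the knockdown (n = 3 per group, SD), with a log2 fold change of 0.06 (limma, Benjamini-Hochberg adjusted p = 0.643).

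Of the 10 integrin genes, 3 were higher with NCOA4 siRNA, Itgal, Itgb5 and Itga4, and none was lower at an adjusted p under 0.05 (limma, Benjamini-Hochberg). Among all 13829 genes tested, 5.42% passed that threshold, 3.11% higher and 2.31% lower. The members were chosen with earlier results of these data known, so their counts beside such shares are a description and not a test of the set. No integrin gene also passed a fold change of 1.5, which 1.18% of tested genes did. The limma fit gave an unadjusted p under 0.05 for 5 members, 4 higher and 1 lower, beside 12.7% of tested genes higher and 8.84% lower. Limma-voom on rebuilt reads called 3 members higher and 1 lower, the latter Itgb1, beside 4.95% and 5.62% of the genes it tested. The 3 replicates of each group did not overlap for 6 members, 5 higher and 1 lower, beside 16.6% of tested genes higher and 11.8% lower. In the fit, 7 members had a log2 fold change above 0 and 3 below, where 57.4% of all tested genes were above 0. The median was 0.13 for the members and 0.03 over all tested genes. The exact two-sided permutation test of a single gene cannot fall below p = 0.1 with 3 against 3 libraries, and each member whose groups did not overlap had that p.

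**Figure D1:**
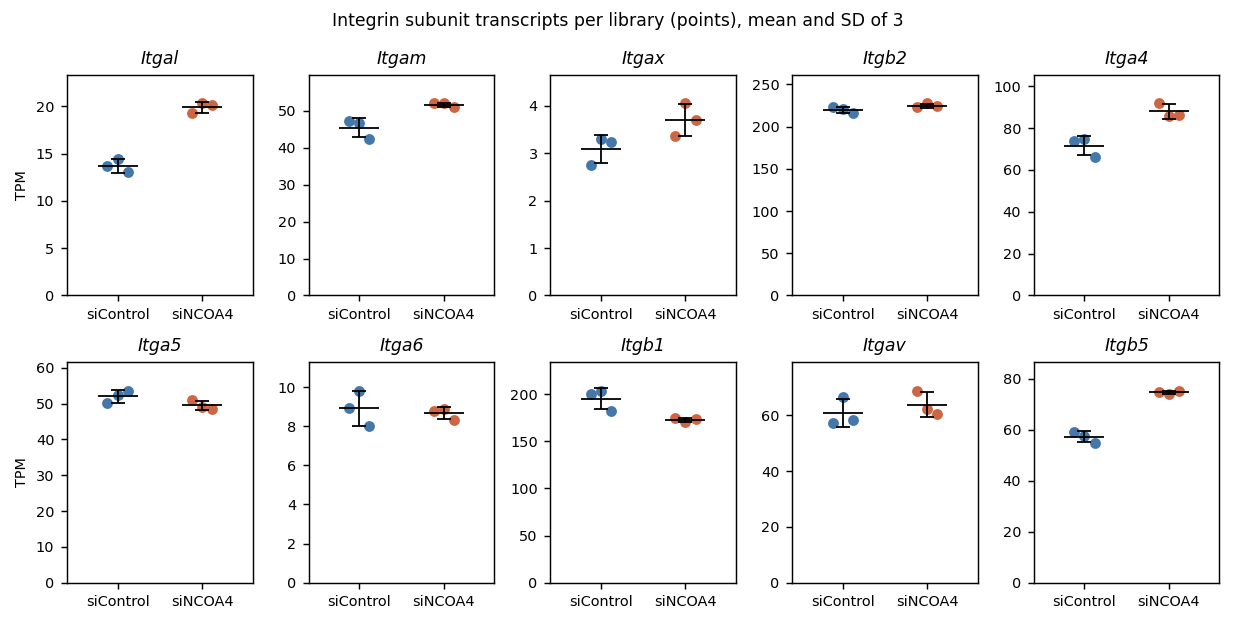
Level in TPM (vertical axes, from 0) of each of the 10 integrin genes, with 1 panel per gene, points for the 3 siControl (control siRNA) and 3 siNCOA4 (NCOA4 siRNA) libraries, and lines for the mean and SD. The groups do not overlap for Itgal, Itgam, Itgax, Itga4 and Itgb5 (all higher with NCOA4 siRNA) or for Itgb1 (lower).

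Itgal (ENSMUSG00000030830, GRCm38 chromosome 7, 127296260 to 127335138, plus strand) encodes the α subunit of LFA-1. It stood at 13.7, 14.5 and 13.0 TPM with control siRNA and at 19.3, 20.3 and 20.1 TPM with NCOA4 siRNA, on 446 to 576 and 727 to 797 rebuilt reads. Every NCOA4 siRNA library was above every control library. The means were 13.7 ± 0.724 and 19.9 ± 0.555 TPM (n = 3 per group, SD), a ratio of 1.45. This was the largest log2 fold change of the 10 genes, 0.52 (SE 0.0600, 95% interval 0.38 to 0.66; limma, Benjamini-Hochberg adjusted p = 0.00717).

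Itgam (ENSMUSG00000030786, chromosome 7, 128062640 to 128118491, plus strand) encodes αM, known as CD11b. It was the most abundant β2 partner, at 47.3, 46.6 and 42.4 TPM with control siRNA and at 52.0, 52.0 and 51.0 TPM with NCOA4 siRNA. The groups did not overlap, but the distance was small: means of 45.4 ± 2.65 and 51.7 ± 0.585 TPM (n = 3 per group, SD), a log2 fold change of 0.18 (SE 0.0524, 95% interval 0.06 to 0.31), and the adjusted p of limma with Benjamini-Hochberg adjustment was 0.101.

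Itgax (ENSMUSG00000030789, chromosome 7, 128129547 to 128150657, plus strand), which encodes αX or CD11c, was the least abundant of the 10 genes. Its levels were 2.76, 3.30 and 3.23 TPM in the control libraries and 3.37, 4.05 and 3.69 TPM in the knockdown libraries, on 76 to 107 reads per library. The lowest NCOA4 siRNA value lay just above the highest control value. The log2 fold change was 0.23 (SE 0.122, 95% interval −0.06 to 0.51; limma, Benjamini-Hochberg adjusted p = 0.339), and a change of the size seen for Itgam lies inside that interval.

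Itgb2 (ENSMUSG00000000290, chromosome 10, 77530252 to 77565708, plus strand), the shared partner CD18, was the most abundant of the 10 genes in both groups. It stood at 223, 221 and 216 TPM with control siRNA and at 223, 228 and 224 TPM with NCOA4 siRNA. These groups overlapped, and the log2 fold change was 0.03 (SE 0.0337, 95% interval −0.05 to 0.11; limma, Benjamini-Hochberg adjusted p = 0.644), the narrowest interval of the 10.

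The measured proportions of the α partners of β2 to each other and to Itgb2 differed between the 6 libraries by group, which is a description. Itgal made up 21.4%, 22.5% and 22.2% of the summed Itgal, Itgam and Itgax TPM with control siRNA and 25.8%, 26.6% and 26.9% with NCOA4 siRNA. Itgam made up 73.0% ± 1.11 and 68.7% ± 0.894 (n = 3 per group, SD), with no overlap, and Itgax 4.99% ± 0.608 and 4.92% ± 0.396, with overlap. The ratio of the 3 α subunits to Itgb2 was 0.286, 0.292 and 0.271 with control siRNA and 0.335, 0.336 and 0.334 with NCOA4 siRNA. Each of the shares without overlap had an exact two-sided permutation p of 0.1, and 0.15 after Benjamini-Hochberg adjustment over the 12 shares compared. A share is computed within a library and does not depend on the scaling between libraries.

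Itgal, Itgam and Itgax lie in a cluster on chromosome 7, with 11.1 kb between Itgam and Itgax and 728 kb between Itgal and Itgam. Of the 67 annotated genes from Itgal to Itgax, 35 were tested, and their median log2 fold change was −0.00394. At an adjusted p under 0.05, 2 of the 35 passed, a share near the 5.42% of all tested genes: Itgal was higher, and Bckdk, the kinase of branched-chain ketoacid dehydrogenase and a gene named here after its values were seen, was lower (log2 fold change −0.45, SE 0.0532; limma, Benjamini-Hochberg adjusted p = 0.00776).

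Itga4 (ENSMUSG00000027009, chromosome 2, 79255426 to 79333123, plus strand) encodes α4, the VCAM-1 receptor subunit CD49d. It was the most abundant α subunit, at 73.8, 74.7 and 66.3 TPM with control siRNA and at 91.8, 85.6 and 86.4 TPM with NCOA4 siRNA. All NCOA4 siRNA values were above all control values, and the third control replicate was the lowest of the 6. The means were 71.6 ± 4.59 and 87.9 ± 3.38 TPM (n = 3 per group, SD), a log2 fold change of 0.30 (SE 0.0583, 95% interval 0.16 to 0.43; limma, Benjamini-Hochberg adjusted p = 0.0361). This call was the least stable of the 3: the adjusted p was 0.0401 without control replicate 1, 0.0552 without control replicate 2, 0.0674 without control replicate 3, and 0.143, 0.110 and 0.117 without NCOA4 siRNA replicates 1, 2 and 3. The calls over all genes also fell from 750 to between 174 and 183 when 1 NCOA4 siRNA library was left out.

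Itgb1 (ENSMUSG00000025809, chromosome 8, 128685654 to 128733200, plus strand), the β1 subunit that pairs with α4, α5, α6 and αV, had the opposite sign. It stood at 199.5, 204 and 182 TPM with control siRNA and at 174, 171 and 173 TPM with NCOA4 siRNA. The 3 NCOA4 siRNA values were close to each other and below the lowest control value. The means were 195 ± 11.4 and 173 ± 1.79 TPM (n = 3 per group, SD), a log2 fold change of −0.17 (SE 0.0493, 95% interval −0.29 to −0.06), and limma with Benjamini-Hochberg adjustment gave an adjusted p of 0.101. It passed the threshold in 3 alternatives, with an adjusted p of 0.0456 after median centring, 0.0131 with limma-voom and 0.0472 without control replicate 3.

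Itga5 (ENSMUSG00000000555, chromosome 15, 103344286 to 103366763, minus strand), the fibronectin receptor subunit, stood at 50.1, 52.3 and 53.6 TPM with control siRNA and at 50.9, 49.2 and 48.5 TPM with NCOA4 siRNA. The groups overlapped, with a log2 fold change of −0.07 (SE 0.0446, 95% interval −0.18 to 0.04; limma, Benjamini-Hochberg adjusted p = 0.420). Itga6 (ENSMUSG00000027111, chromosome 2, 71745616 to 71858416, plus strand), the laminin receptor subunit, was at 8.93, 9.82 and 8.01 TPM and at 8.78, 8.89 and 8.34 TPM. Its NCOA4 siRNA values lay inside the control range, and the log2 fold change was −0.04 (SE 0.0883, 95% interval −0.24 to 0.17; limma, Benjamini-Hochberg adjusted p = 0.858).

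Shares were taken among 4 β1 partners, Itga4, Itga5, Itga6 and Itgav, the last of which also pairs with β5. Itga4 made up 38.8%, 36.8% and 35.6% of their summed TPM with control siRNA and 41.7%, 41.6% and 42.4% with NCOA4 siRNA. Itga5 made up 27.0% ± 1.61 and 23.6% ± 0.436 (n = 3 per group, SD), again with no overlap. Both had an exact permutation p of 0.1 and an adjusted p of 0.15. These shares add up to the whole, and the TPM of Itga5 itself overlapped between groups. With 4 further expressed β1 partners in the sum (Itga7, Itga8, Itga9 and Itga10), added after the data were seen, the share of Itga4 was 34.1%, 32.0% and 31.2% in the control libraries and 36.7%, 36.5% and 37.3% in the knockdown libraries, still without overlap. That of Itga5 was 23.6% ± 1.44 and 20.8% ± 0.360 (n = 3 per group, SD), also without overlap. The 4-subunit shares of Itga6 (exact permutation p = 0.2) and Itgav (p = 0.3) overlapped between groups. The ratio of Itgb1 to Itga4, set up after the values were seen, was 2.73 ± 0.0216 in the control group and 1.97 ± 0.0598 in the knockdown group (n = 3 per group, SD).

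Itgb5 (ENSMUSG00000022817, chromosome 16, 33829665 to 33949338, plus strand) encodes β5, which pairs with αV alone. It stood at 59.2, 57.4 and 55.0 TPM with control siRNA and at 74.6, 73.8 and 75.3 TPM with NCOA4 siRNA. The NCOA4 siRNA values were close to each other and all above the control values. The means were 57.2 ± 2.14 and 74.6 ± 0.728 TPM (n = 3 per group, SD), a ratio of 1.30, and the log2 fold change of 0.38 had the lowest adjusted p of the 10 genes (SE 0.0421, 95% interval 0.28 to 0.48; limma, Benjamini-Hochberg adjusted p = 0.00660). The calls of Itgb5 and Itgal held in each of the 16 alternative fits, with a highest adjusted p of 0.0479 and 0.0485.

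Itgav (ENSMUSG00000027087, chromosome 2, 83724397 to 83806916, plus strand), the partner of β5, stood at 57.3, 66.4 and 58.3 TPM with control siRNA and at 68.8, 62.0 and 60.6 TPM with NCOA4 siRNA. The groups overlapped, with a log2 fold change of 0.07 (SE 0.0748, 95% interval −0.10 to 0.25; limma, Benjamini-Hochberg adjusted p = 0.620). The ratio of Itgb5 to Itgav was 1.03, 0.865 and 0.943 with control siRNA and 1.08, 1.19 and 1.24 with NCOA4 siRNA, without overlap (exact permutation p = 0.1, adjusted p = 0.15). Among the 3 β subunits, Itgb5 made up 12.1% ± 0.180 of the summed TPM with control siRNA and 15.8% ± 0.146 with NCOA4 siRNA, and Itgb1 41.3% ± 1.04 and 36.6% ± 0.394 (n = 3 per group, SD), both without overlap. The share of Itgb2 was 46.6% ± 0.966 and 47.6% ± 0.512, with overlap (exact permutation p = 0.3).

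**Figure D2:**
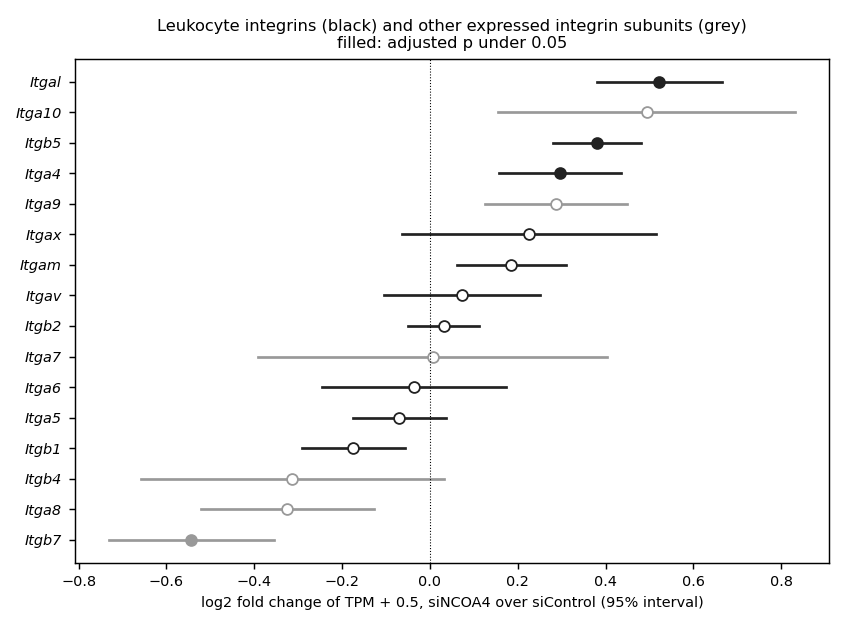
Log2 fold change, NCOA4 siRNA minus control siRNA, of the 10 integrin genes (black) and the 6 other subunits tested (grey), as points with 95% intervals from limma on log2(TPM + 0.5), filled where the Benjamini-Hochberg adjusted p is under 0.05. Among the 10, the intervals of Itgal, Itgb5, Itga4 and Itgam lie above 0 and that of Itgb1 below 0, and among the grey points Itgb7 is the single filled one.

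**Figure D3:**
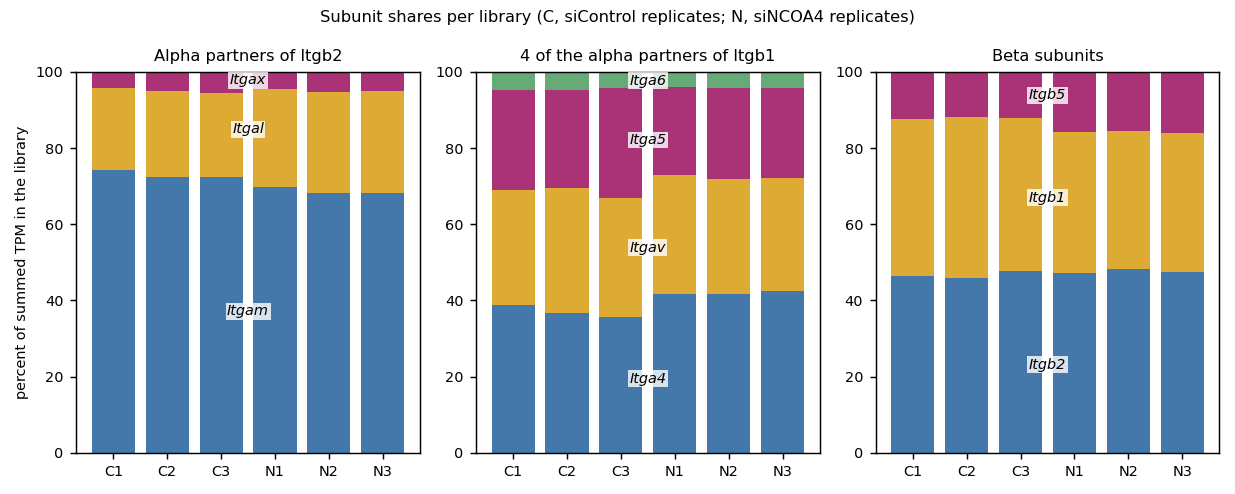
Stacked bars of the percent of summed TPM that each subunit takes within a library, for the α partners of Itgb2, 4 of the α partners of Itgb1 (Itga4, Itga5, Itga6 and Itgav) and the 3 β subunits, with C1 to C3 for control siRNA and N1 to N3 for NCOA4 siRNA replicates. Itgal, Itga4 and Itgb5 take a larger share in all 3 NCOA4 siRNA libraries than in any control library, and Itgam, Itga5 and Itgb1 a smaller one. The shares of a panel add up to the whole, so a smaller share need not be a lower level. The TPM of Itgam was higher in all 3 NCOA4 siRNA libraries, and that of Itga5 overlapped between groups.

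Since TPM is per length, the 10 levels were ranked within a group, and the order depends on the length used for each gene. With control siRNA the order was Itgb2, Itgb1, Itga4, Itgav, Itgb5, Itga5, Itgam, Itgal, Itga6 and Itgax, from a mean of 220 to 3.10 TPM. In that order the library ranges of Itga4 and Itgav overlapped, as did those of Itgav and Itgb5, so these neighbours were not separated. With NCOA4 siRNA the ranges of no neighbours overlapped, Itgb5 stood above Itgav and Itgam stood above Itga5. The summed level of the 10 genes was 698 to 749 TPM in the control group and 751 to 766 TPM in the knockdown group.

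Of 17 other integrin subunits, 6 had a mean of at least 0.5 TPM, and Itgad, Itga11, Itgb2l, Itgb6 and Itgb8 had no read in any library. Itgb7, the other partner of α4, fell. It stood at 25.0, 26.9 and 28.8 TPM with control siRNA and at 17.1, 17.9 and 19.9 TPM with NCOA4 siRNA, with no overlap. The log2 fold change was −0.54 (SE 0.0790, 95% interval −0.73 to −0.36; limma, Benjamini-Hochberg adjusted p = 0.0148), and the adjusted p was 0.0705 without NCOA4 siRNA replicate 1 and 0.0750 without replicate 2. The ratio of Itgb7 to Itga4, set up after the values were seen, was 0.378 ± 0.0503 in the control group and 0.209 ± 0.0222 in the knockdown group (n = 3 per group, SD).

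The other 5 subunits tested did not pass. Itga9, a further β1 partner that binds tenascin-C and VCAM-1, was at 11.9 ± 0.743 and 14.6 ± 0.560 TPM (limma, Benjamini-Hochberg adjusted p = 0.0618), and Itga8, which pairs with β1 and binds nephronectin, at 11.9 ± 1.00 and 9.41 ± 0.559 TPM (adjusted p = 0.0790; n = 3 per group, SD). Itga10, a collagen receptor subunit, had a log2 fold change of 0.49 on 1.88 and 2.84 TPM (limma, Benjamini-Hochberg adjusted p = 0.106). Itgb4, the partner of α6 in epithelia, was at 3.36 and 2.59 TPM (limma, Benjamini-Hochberg adjusted p = 0.274), and Itga7, a laminin receptor subunit of muscle, at 1.76 and 1.77 TPM (adjusted p = 0.990). The median log2 fold change of the 6 was −0.15.

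Genes that act with integrins were described in 6 further lists. The lists were chosen with earlier results of these data known, so the counts below are a description and not a test of the lists. Each list count stands beside 3.11% of all tested genes called higher and 2.31% called lower. Over these 6 lists and the other subunits, 97 of 134 genes were tested and 16 of them passed (16.5%, beside 5.42% of all tested genes), 5 higher and 11 lower, with a median log2 fold change of 0.02. These counts were 4 higher and 11 lower without control replicate 1, 3 and 5 without control replicate 2, 4 and 3 without control replicate 3, and 2 and 3, 2 and 2, and 1 and 3 without NCOA4 siRNA replicates 1, 2 and 3, and with the replicate number as a block they were 1 and 3.

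Talins and kindlins bind the β tail and switch integrins on. Tln1, the most abundant talin, was at 287 ± 9.41 and 277 ± 3.99 TPM (limma, Benjamini-Hochberg adjusted p = 0.491) and Fermt3, the kindlin of blood cells, at 161 ± 6.77 and 158 ± 3.70 TPM (adjusted p = 0.772; n = 3 per group, SD). Tln2, the other talin, named here after its values were seen, was at 11.7 ± 0.671 and 13.4 ± 0.142 TPM without overlap, a log2 fold change of 0.18 (95% interval 0.03 to 0.33; limma, Benjamini-Hochberg adjusted p = 0.162). Of the 22 activators and adaptors tested, 1 rose and 1 fell, and they were both parvins, which join the integrin-linked kinase complex to actin. Parvb stood at 114, 113 and 109 TPM with control siRNA and at 75.9, 79.6 and 74.6 TPM with NCOA4 siRNA (log2 fold change −0.54; limma, Benjamini-Hochberg adjusted p = 0.00216). Parvg, the parvin of blood cells, stood at 230.3, 233 and 239.7 TPM and at 284, 275 and 284 TPM (log2 fold change 0.26; limma, Benjamini-Hochberg adjusted p = 0.0121). The Parvb call held with each library left out, while that of Parvg was lost without any 1 NCOA4 siRNA library, with an adjusted p of up to 0.0765.

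Of 9 tested genes in the list drawn up as integrin inactivators, 1 fell, Tns3, a tensin that binds the β tail. Being on the list does not show that it holds integrins inactive, and integrin activity was not measured. Tns3 stood at 42.9, 46.4 and 43.6 TPM with control siRNA and at 32.3, 31.0 and 32.0 TPM with NCOA4 siRNA (log2 fold change −0.47; limma, Benjamini-Hochberg adjusted p = 0.00482). Of 20 genes of proximal signalling, 2 rose and 1 fell. Syk, the kinase that signals from β2 integrins and Fc receptors, was at 27.6 ± 1.40 and 32.8 ± 0.309 TPM (limma, Benjamini-Hochberg adjusted p = 0.0439), and Ptk2b, the focal adhesion kinase of leukocytes also called Pyk2, at 57.3 ± 1.10 and 49.2 ± 1.38 TPM (adjusted p = 0.0323; n = 3 per group, SD). Tns3 kept its call with each library left out. Syk and Ptk2b missed the threshold in each left-out fit except that without control replicate 1, with an adjusted p of up to 0.166 and 0.147.

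Of 14 ligands and counter-receptors tested, 2 rose and 2 fell. Tgfbi, a secreted protein that binds αV and β1 integrins, rose most: it stood at 3.93, 4.55 and 4.63 TPM with control siRNA and at 16.4, 14.7 and 15.8 TPM with NCOA4 siRNA. Its log2 fold change was 1.73 (limma, Benjamini-Hochberg adjusted p = 0.00118), and the call held with each library left out. C3, the complement protein whose fragment iC3b binds αM and αX, was at 4.24 ± 0.665 and 6.98 ± 0.515 TPM (log2 fold change 0.67, adjusted p = 0.0321; n = 3 per group, SD). Spp1, osteopontin, a ligand of αV and α4 integrins, fell from 5445 ± 638 to 3668 ± 59.3 TPM (log2 fold change −0.56, adjusted p = 0.0187), and Mfge8, which bridges apoptotic cells to αV integrins, from 22.3 ± 0.693 to 18.4 ± 0.400 TPM (adjusted p = 0.0312; n = 3 per group, SD). Icam1, the counter-receptor of LFA-1 and Mac-1, was at 61.8 ± 1.06 and 66.3 ± 0.132 TPM (limma, Benjamini-Hochberg adjusted p = 0.172). The calls of C3, Spp1 and Mfge8 were lost without any 1 NCOA4 siRNA library, with an adjusted p of up to 0.132, 0.0887 and 0.131. Further losses came without control replicates 1 and 2 for C3, control replicate 3 for Spp1, and control replicates 2 and 3 for Mfge8.

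Of 12 membrane proteins tested that stand beside integrins, 6 had a log2 fold change above 0 and 6 below, with a median of −0.00516. At an adjusted p under 0.05, where 3.11% of all tested genes were higher and 2.31% lower, none rose and 4 fell. They were the tetraspanin Cd9 at 508 ± 4.58 and 447 ± 2.76 TPM, galectin-3 (Lgals3) at 998 ± 39.6 and 847 ± 13.3 TPM, the urokinase receptor Plaur, a partner of αMβ2, at 97.1 ± 6.82 and 76.3 ± 4.82 TPM, and basigin (Bsg) at 418 ± 3.34 and 375 ± 5.23 TPM (n = 3 per group, SD). Their log2 fold changes were −0.18, −0.24, −0.35 and −0.15, with limma, Benjamini-Hochberg adjusted p of 0.0262, 0.0286, 0.0375 and 0.0470. Each of the 4 kept the call in only 1 of the 6 fits with a library left out, that without control replicate 2 for Plaur and without control replicate 1 for the others, and their highest adjusted p was 0.139, 0.144, 0.135 and 0.210. Cd47, which associates with αV integrins and is the do-not-eat-me signal, was at 16.5 ± 0.665 and 19.1 ± 1.18 TPM (limma, Benjamini-Hochberg adjusted p = 0.130; n = 3 per group, SD). Of 14 genes of integrin trafficking, Numb, an endocytic adaptor that binds β integrins, fell from 58.3 ± 1.68 to 47.1 ± 2.89 TPM (log2 fold change −0.31; limma, Benjamini-Hochberg adjusted p = 0.0273). It passed without NCOA4 siRNA replicate 1 and without control replicate 1 but not in the other 4 left-out fits, with an adjusted p of up to 0.117.

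**Figure D4:**
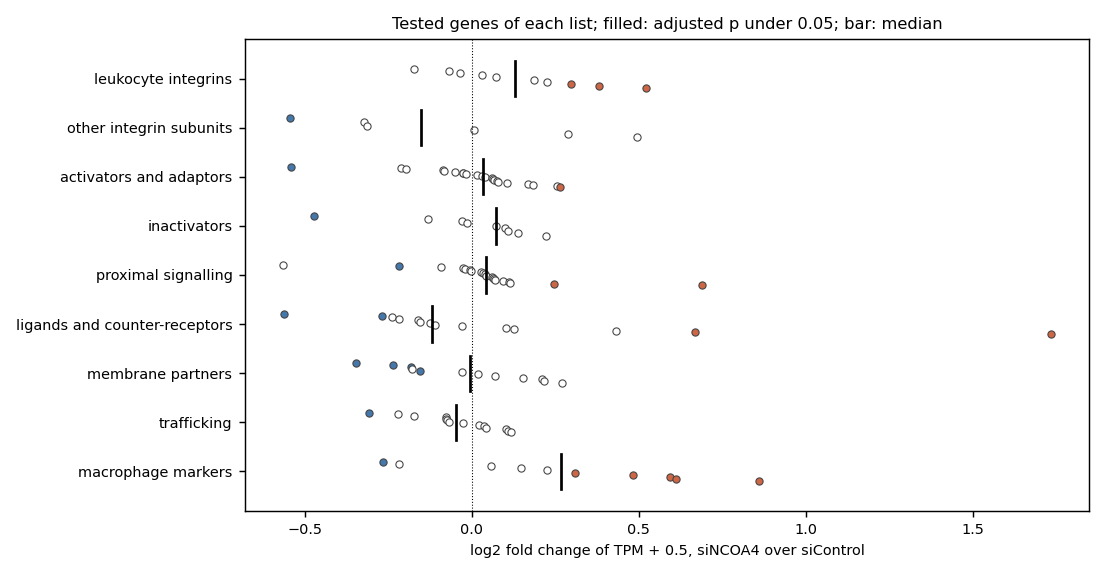
Log2 fold changes, NCOA4 siRNA over control siRNA on log2(TPM + 0.5), of the tested genes in the integrin set, each integrin-related list and the macrophage markers, with points filled at a Benjamini-Hochberg adjusted p under 0.05 in limma (red higher, blue lower) and a black bar at each median. Tgfbi, at 1.73, is the farthest point on the higher side, and the macrophage marker median lies at 0.27.

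Itgax rested on the fewest rebuilt reads, 76 to 107 per library, and the other 9 genes had 382 to 7454 in every library. How much of the spread between libraries came from counting was not tested. Of the 10 genes, 5 overlap another annotated gene, and those overlapping genes held at most 24 reads in a library. The limma p-values rest on the spread between libraries from cultures of 1 cell line, counting noise included. The variance of each gene was also drawn toward a trend over all tested genes. Without that trend the limma, Benjamini-Hochberg adjusted p was 0.0214 for Itgal and 0.0287 for Itgb5.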

How the data were processed

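Poly(A)-selected, stranded RNA-seq libraries were made from 3 control siRNA and 3 NCOA4 siRNA cultures of J774 cells. The authors deposited 1 table of TPM per library, that is, read counts per Ensembl gene divided by gene length and scaled to a common total, with no scaling between libraries. The submitters' processing notes name Trimmomatic 0.33, FastQC, HISAT2 2.1.0, featureCounts, edgeR and the build mm10. The annotation release and the strand setting of the counting are not given in the sources used here. Of 55487 identifiers, 55227 were found in GENCODE M21 (GRCm38), which gave symbols and positions.

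Whole reads were rebuilt from TPM and GENCODE M21 exon length, and came out whole within 0.02 reads in all libraries for 99.4% of 21096 genes above 0. For 197 genes, Itga6 among them, the length was itself fitted to make the reads whole. These reads gave depths and the limma-voom alternative.

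Genes with a mean of at least 0.5 TPM (13829) were tested by limma 3.58.1 in R 4.3.3 over all 6 libraries. The lmFit and trended eBayes steps took log2(TPM + 0.5), and p-values were adjusted by Benjamini-Hochberg over all of them. Fold changes are on that scale, which understates changes of low genes. Intervals are 95% and unadjusted. Single values and within-library shares were compared by the exact two-sided permutation test over 20 arrangements. Promoters were searched with Python 3.11.15, and the table used held none for Itgal, Itgb2 and Itga6. The limma step was also run on simulated reads with the same dispersion for all genes and no outlying library. That run therefore does not bear on calls that change when a library is left out.

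The alternatives were other pseudocounts (1, 0.1), no filter, a minimum of 5 TPM, median centring, quantile normalization, removal of mitochondrial genes, eBayes without a trend, limma-voom on 13802 genes, a block for the replicate number, and the removal of 1 library at a time. For the shares, the ratio of group means and the inclusion of Itgad were tried, and the inclusion of Itga7 to Itga10 was added after seeing the data. Named genes were the 10 members, Ncoa4, every other integrin subunit with a mean of at least 0.5 TPM, up to 6 called genes per list with the smallest adjusted p, and Tln1, Fermt3, Syk, Icam1 and Cd47. A gene that this rule selects is not reported here. The members and lists were chosen with earlier results of these data known. Replicates are labelled as biological.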

Additional observations from a re-analysis of the deposited data

How the results depend on the processing

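Over 16 alternative fits the number of integrin genes called higher was 2 or 3, against 3, and none passed a fold change of 1.5 in any of them. The number called lower was 1 instead of 0, Itgb1 each time, after median centring and with limma-voom, and was 0 to 1 with a library left out. Itgal had a log2 fold change of 0.46 to 0.56 and Itgb5 of 0.32 to 0.40, both called throughout. Itga4 ranged from 0.24 to 0.33, and its call was also lost with no filter (adjusted p 0.0585), median centring (0.0627), without mitochondrial genes (0.0557), eBayes without a trend (0.0869) and the replicate block (0.0857). The sign turned for Itgb2 with median centring (−0.0269) and for Itga6 without control replicate 2 (0.0325; −0.106 to 0.0325 with a library left out). For Itga7 it turned with median centring (−0.0518), quantile normalization (−0.0699), no mitochondrial genes (−0.00486) and limma-voom (−0.0270), and it ran from −0.0835 to 0.0713 with a library left out. Itga8 passed with median centring, quantile normalization and limma-voom, Itga9 with a minimum of 5 TPM and limma-voom, and Itga10 with limma-voom. No share difference moved beyond the spread between replicates, also with 4 further β1 partners counted, an alternative chosen after seeing the data.

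Over the 7 integrin-related lists the count of genes higher was 5, and became 3 with no filter, 3 with quantile normalization, 3 without a trend and 10 with limma-voom. The count lower was 11, and became 7 with no filter, 4 without a trend and 19 with limma-voom. With a library left out the counts were 1 to 4 higher and 2 to 11 lower. Over all genes, 750 calls became 499 with no filter, 404 without a trend, 1458 with limma-voom and 174 to 841 with a library left out. The calls also past a fold change of 1.5, 163, became 87 with the replicate block and 93 to 98 with an NCOA4 siRNA library left out. The cause of these shifts was not tested, except that a library left out leaves fewer samples.

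Whether the replicate numbers pair the cultures is not stated in the sources used here. The deviations of same-numbered libraries from their group means correlated at 0.0283, −0.0185 and 0.0229. Such values show no strong shared deviation, but cultures can be set up in pairs without one, so they do not decide it. With the replicate block, 161 genes were called in all, the list counts were 1 higher and 3 lower, and Itgal and Itgb5 remained called.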
